A study of Homo sapiens with 12 samples.

Results

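The genes described here are the transcription factors that drive epithelial-mesenchymal transition (EMT) and the mesenchymal markers that go with it. They are taken by their symbols from a fixed list of 10: the factors ZEB1, ZEB2, SNAI1, SNAI2, TWIST1 and TWIST2, and the markers VIM, FN1, CDH2 and CDH11. Of these 10 genes, 8 are described, out of 25049 in the whole count table. All 8 passed the filter on low counts, CDH11 only through the paclitaxel-treated GLI2 KO samples. TWIST1 and TWIST2 were not analysed here.

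Poly(A) RNA of cultured MDA-MB-231b cells was counted in 4 groups of 3 samples: paclitaxel-treated GLI2 KO cells, DMSO-treated GLI2 KO cells, paclitaxel-treated WT cells and DMSO-treated WT cells. Paclitaxel, a drug that stabilises microtubules, was given at 50 nM for 2 days, and DMSO is its solvent. The parent line MDA-MB-231 comes from a human breast cancer without hormone receptors or HER2 amplification, and the MDA-MB-231b lineage, which all 4 groups share, is a bone-tropic derivative recovered from the marrow of athymic nude mice. The design describes Cas9 knockout by lentivirus with a guide against GLI2 or a guide with no target. The controls are labelled WT. Neither whether they carried the untargeted guide, nor whether the GLI2 KO cells were a clone or a pool, is stated in the labels. The study's stated question is the part of GLI2 in the response to paclitaxel. The labels do not tie replicates to separate cultures, so each p-value is set against sample spread that may be purely technical.

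EMT is a change of state in which epithelial cells lose their junctions and polarity and gain the motility and matrix production of mesenchymal cells. SNAIL (SNAI1), SLUG (SNAI2), ZEB1 and ZEB2 are zinc finger repressors that bind E-boxes, among them those of CDH1, the gene of E-cadherin, and they recruit corepressors to them. The microRNA-200 family represses ZEB1 and ZEB2 in return, and TGF-beta signalling induces several of these factors. Vimentin (VIM) is the intermediate filament protein of mesenchymal cells, fibronectin (FN1) a matrix glycoprotein bound by integrins, and N-cadherin (CDH2) and cadherin 11 (CDH11) classical cadherins of mesenchymal cells. MDA-MB-231 is commonly used as a mesenchymal-like breast cancer line, rich in vimentin and poor in E-cadherin.

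VIM and FN1 fell together under paclitaxel, while ZEB1 was not called lower, so the sequences just upstream of these 3 genes are shown. They are the parts of RefSeq promoter windows, build GRCh38.p14, that lie before the first annotated exon, written 5′ to 3′ on the gene's strand. The VIM window is chr10:17227991-17228240 on the plus strand, the FN1 window chr2:215436173-215436318 on the minus strand, and the ZEB1 window chr10:31318167-31318416 on the plus strand.
VIM: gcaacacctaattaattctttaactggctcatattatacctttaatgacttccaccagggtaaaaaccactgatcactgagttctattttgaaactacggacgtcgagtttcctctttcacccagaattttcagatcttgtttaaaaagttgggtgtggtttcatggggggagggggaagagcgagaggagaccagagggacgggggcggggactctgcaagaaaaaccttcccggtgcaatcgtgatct
FN1: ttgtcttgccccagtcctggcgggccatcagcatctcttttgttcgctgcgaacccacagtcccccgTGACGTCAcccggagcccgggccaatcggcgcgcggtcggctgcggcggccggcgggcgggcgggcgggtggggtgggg
ZEB1: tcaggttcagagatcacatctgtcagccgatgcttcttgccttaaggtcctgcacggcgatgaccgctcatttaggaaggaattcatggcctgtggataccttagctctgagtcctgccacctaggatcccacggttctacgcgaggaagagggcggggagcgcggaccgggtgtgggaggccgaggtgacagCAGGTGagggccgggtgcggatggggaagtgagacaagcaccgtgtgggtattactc
Capitals mark the motifs found among 4 that were searched on both strands: the SNAIL and ZEB E-box CAGGTG, the GLI consensus GACCACCCA, the AP-1 site TGACTCA and the cAMP response element TGACGTCA. Positions are counted from the start of the RefSeq transcript, which for FN1 lies downstream of the end of the printed stretch. The ZEB1 stretch holds an E-box that begins at -57, the FN1 stretch a cAMP response element that begins at -183, and the VIM stretch none of the 4. ZEB1 has 7 RefSeq windows, of which only the most upstream is shown; 2 of the 7 hold the E-box and 0 any of the other motifs, while VIM and FN1 have 1 window each. Of 35116 RefSeq windows of the same 250 bases upstream, counted singly, 17.5% hold the E-box, 0.199% the GLI consensus, 4.2% the AP-1 site and 1.65% the cAMP response element. These matches are a description of letters and say nothing of whether a factor binds there.

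Totals ran from 83230948 to 109018776 counts per sample. Levels are given in CPM, library-scaled counts adjusted by TMM factors. A floor of 3 counts equals 0.0275 to 0.0360 CPM by library totals, before TMM factors. Between 24923 and 24985 genes were detected in paclitaxel samples, against 23712 to 24125 in DMSO samples. The targeted gene GLI2 still gave reads: it averaged 4.16 CPM in paclitaxel-treated GLI2 KO cells and 9.20 CPM in DMSO-treated GLI2 KO cells, against 5.68 CPM in paclitaxel-treated WT cells and 10.8 CPM in DMSO-treated WT cells. Its log2 fold change in GLI2 KO against WT cells was -0.44 ± 0.09 in paclitaxel (SE; edgeR adjusted p = 0.000243) and -0.23 ± 0.08 in DMSO (adjusted p = 0.0253). The DMSO call was lost without either of GLI2 KO replicates 1 and 2 (adjusted p = 0.0577 and 0.183) or WT replicate 2 (adjusted p = 0.11). A gene-level count does not test an edit, which can leave the transcript in place. As a check of the line, the summed level of VIM, CD44, EGFR, CAV1, MET and AXL was 4160 to 6119 CPM, and CDH1 did not exceed 1.29 CPM in any sample.

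Levels of different genes can be compared only per length, here as CPM per kilobase of annotated exon. In DMSO-treated WT cells the order was VIM at 567 ± 3.13, FN1 at 21.3 ± 0.948, ZEB1 at 10.2 ± 0.261, SNAI2 at 8.35 ± 0.332, SNAI1 at 1.90 ± 0.173, ZEB2 at 0.743 ± 0.0125 and CDH2 at 0.128 ± 0.0151 CPM per kilobase (SD, n = 3). CDH11 stood at the floor, with 2 counts over 3 samples. ZEB1 and SNAI2 were the most abundant of the 4 factors per length in every group, and SNAI1 came nearest to them in paclitaxel, at 5.34 ± 0.693 in GLI2 KO cells and 7.11 ± 0.356 CPM per kilobase in WT cells. In paclitaxel-treated GLI2 KO cells ZEB2 and CDH2 stood at 0.587 ± 0.0112 and 0.588 ± 0.0429 CPM per kilobase, but at 1.54 and 0.671 with the longest transcript as the length in place of all exons. With that length ZEB2 also reached 1.94 and SNAI1 1.90 CPM per kilobase in DMSO-treated WT cells, so the place of ZEB2 in the order depends on the gene model.

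**Figure D1:**
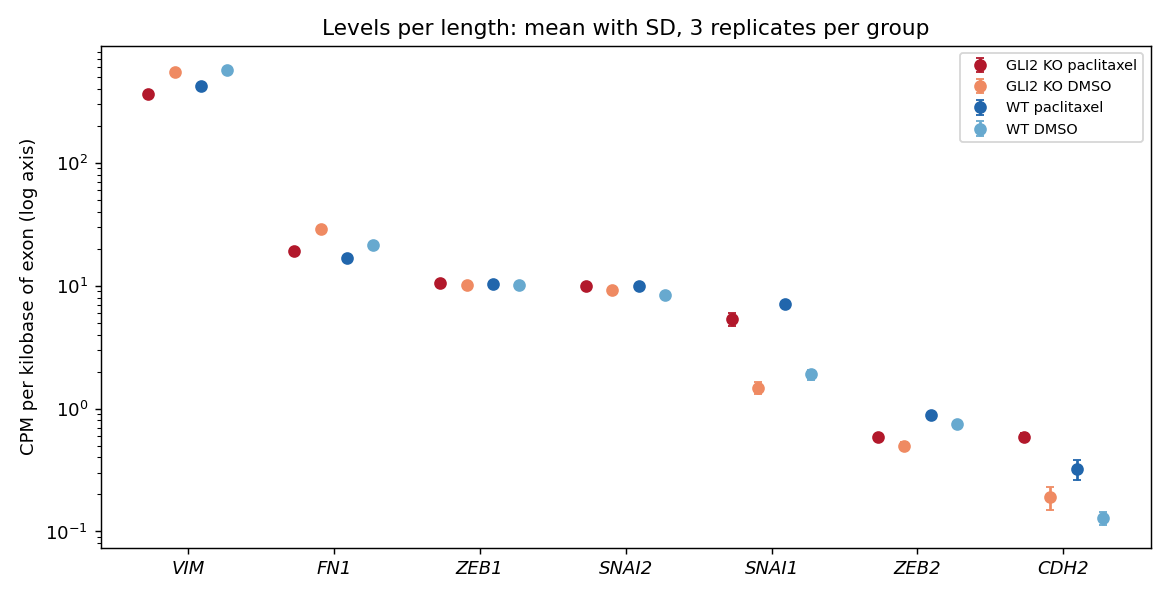
Level of 7 of the genes in each group, in TMM-scaled CPM per kilobase of exon on a log axis, as the mean with SD over 3 replicates; CDH11, at or near the floor, is left out. VIM lies above every other gene in all 4 groups, and SNAI1 shows the widest separation of paclitaxel from DMSO among the factors, at 7.11 against 1.90 CPM per kilobase in WT cells.

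The first comparison asked what paclitaxel did to these genes in each genotype. SNAI1 rose 3.59-fold in GLI2 KO cells and 3.74-fold in WT cells, and CDH2 rose 3.08-fold and 2.48-fold. ZEB2 and SNAI2 rose by under 20% in both genotypes with TMM factors. VIM and FN1, the 2 most abundant of the genes, fell in both. ZEB1 was called higher in GLI2 KO cells and not called in WT cells, at log2 fold changes of 0.07 and 0.01 that other scalings raised. In GLI2 KO cells 5 of the 8 genes were called higher, 2 lower and 1 (CDH11) neither, and of all 21974 genes tested 65.2% were called, 33% higher and 32.2% lower. In WT cells 5 were called higher, 2 lower and 1 (ZEB1) neither, and of all genes tested 66.7% were called, 34.6% higher and 32.1% lower. The median log2 fold change over the 8 genes was 0.18 in GLI2 KO and 0.25 in WT cells, beside 0.02 and 0.03 over all genes tested.

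SNAI1 encodes SNAIL, a short-lived repressor of CDH1. It had 8.01, 10.3 and 8.73 CPM in paclitaxel-treated GLI2 KO cells, against 2.19, 2.71 and 2.60 CPM in DMSO-treated GLI2 KO cells. WT samples had 11.6, 11.7 and 12.7 CPM in paclitaxel, against 3.53, 3.03 and 3.03 CPM in DMSO. Every paclitaxel sample lay above every DMSO sample of both genotypes. The log2 fold change was 1.84 ± 0.10 in GLI2 KO cells (SE; edgeR's quasi-likelihood test, Benjamini-Hochberg adjusted p = 6.94e-14) and 1.90 ± 0.09 in WT cells (adjusted p = 1.75e-14). An exact two-sided permutation test on these samples gives p = 0.1, the smallest that 3 against 3 allows, and the same holds for every pair of groups below whose replicates did not overlap. Nonoverlapping replicates were the rule across the table: 67.2% of all genes tested in GLI2 KO cells and 71.5% in WT cells.

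ZEB2, a ZEB1 paralogue, had 14.6, 14.5 and 15.02 CPM in paclitaxel-treated GLI2 KO cells, against 12.9, 13.3 and 11.4 CPM in DMSO. WT cells had 20.9, 22.4 and 23.0 CPM in paclitaxel, against 18.7, 18.3 and 18.9 CPM in DMSO. Within each genotype the paclitaxel samples were all above the DMSO samples, and the GLI2 KO samples in paclitaxel were still below the WT samples in DMSO. The log2 fold change under paclitaxel was 0.24 ± 0.05 in GLI2 KO cells (edgeR adjusted p = 0.000532) and 0.25 ± 0.05 in WT cells (adjusted p = 0.000176). With library totals these were 0.42 and 0.40, and without both GLI2 KO replicates 3 the GLI2 KO value was 0.15 (adjusted p = 0.0209).

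SNAI2, the gene of SLUG, had 33.8, 35.1 and 32.8 CPM in paclitaxel-treated GLI2 KO cells, against 30.4, 31.8 and 31.7 CPM in DMSO. Its WT values were 33.6, 33.3 and 33.9 CPM in paclitaxel, against 27.9, 29.6 and 27.5 CPM in DMSO. The paclitaxel levels of the genotypes overlapped, and the DMSO levels did not. Its log2 fold change was 0.12 ± 0.04 in GLI2 KO cells (edgeR adjusted p = 0.0125) and 0.25 ± 0.04 in WT cells (adjusted p = 6.47e-06). The GLI2 KO call was lost without DMSO replicate 1 (adjusted p = 0.077) or paclitaxel replicate 2 (adjusted p = 0.1). With library totals the log2 fold changes were 0.29 in GLI2 KO cells and 0.40 in WT cells.

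ZEB1, which represses CDH1 and the microRNA-200 genes, had 90.4, 90.2 and 93.0 CPM in paclitaxel-treated GLI2 KO cells, against 87.2, 85.9 and 87.3 CPM in DMSO. WT cells had 86.7, 89.9 and 88.6 CPM in paclitaxel, against 88.3, 90.2 and 85.7 CPM in DMSO. The WT groups overlapped and the GLI2 KO groups did not. The log2 fold change in WT cells was 0.01, with a 95% interval of -0.06 to 0.07 (edgeR adjusted p = 0.881). In GLI2 KO cells it was 0.07 ± 0.03 (adjusted p = 0.0376), a call lost when any 1 of the 6 samples was left out (adjusted p 0.0514 to 0.144). Without a filter on low counts it was 0.06 (adjusted p = 0.076), and with library totals in place of TMM factors 0.25 (adjusted p = 1.08e-07). In WT cells too ZEB1 was called higher with library totals, at 0.16 (adjusted p = 4.74e-05), with upper-quartile factors, at 0.14 (adjusted p = 0.000294), and with a minimum count of 50, at 0.07 (adjusted p = 0.0272).

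**Figure D2:**
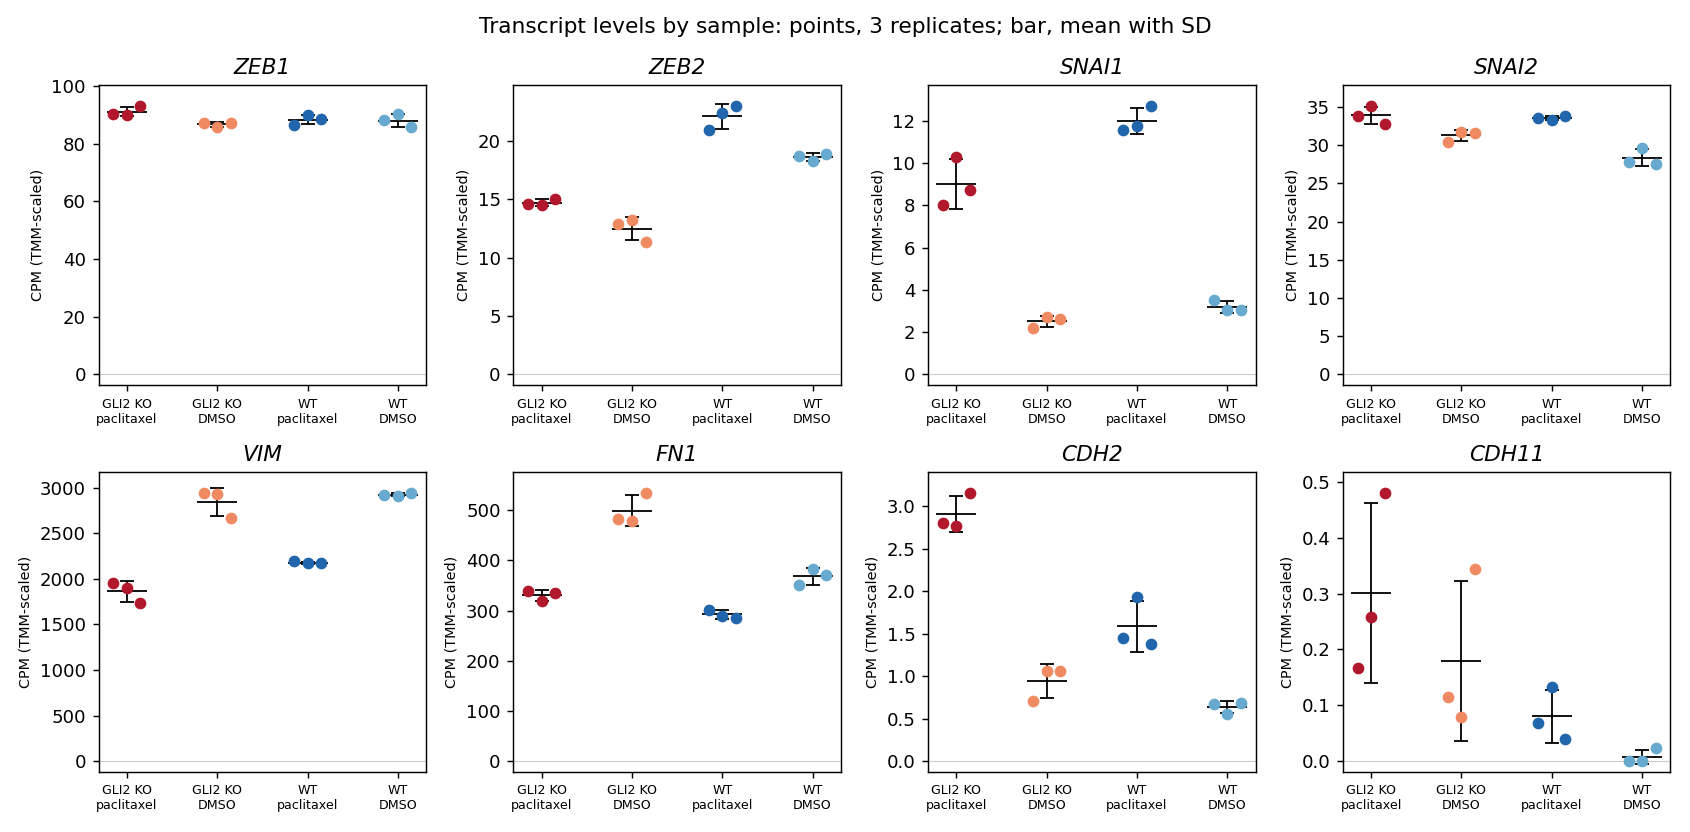
TMM-scaled CPM of the 8 genes by group, 1 panel per gene with its own linear axis; points are the 3 replicates and bars the mean with SD. SNAI1 and CDH2 are higher in paclitaxel in both genotypes, VIM and FN1 are lower, ZEB1 stays between 85.7 and 93.0 CPM, and ZEB2 separates the genotypes.

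VIM was by far the most abundant of the 8 genes. Paclitaxel-treated GLI2 KO cells had 1960, 1899 and 1735 CPM, against 2939, 2928 and 2666 CPM in DMSO. Paclitaxel-treated WT cells had 2192, 2171 and 2171 CPM, against 2916, 2911 and 2941 CPM in DMSO. No paclitaxel sample reached any DMSO sample, and replicate 3 was the lowest of its GLI2 KO group in both treatments. VIM fell by 34.4% in GLI2 KO cells (log2 fold change -0.61 ± 0.04; edgeR adjusted p = 2.82e-12) and by 25.5% in WT cells (-0.42 ± 0.04; adjusted p = 1.72e-09), the WT value being -0.27 with library totals. These are shares of the RNA sequenced, and in bulk samples less RNA per cell and fewer cells of a kind cannot be told apart.

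FN1 fell beside it. Levels were 338, 319 and 335 CPM in paclitaxel-treated GLI2 KO cells, against 483, 479 and 534 CPM in DMSO. In WT cells they were 302, 290.2 and 285 CPM in paclitaxel, against 351, 383 and 370.2 CPM in DMSO. The 3 highest samples of the 12 were the DMSO-treated GLI2 KO cells, and the 3 lowest the paclitaxel-treated WT cells. The fall was 33.7% in GLI2 KO cells (log2 fold change -0.59 ± 0.04; edgeR adjusted p = 3.56e-11) and 20.6% in WT cells (-0.33 ± 0.04; adjusted p = 2.96e-07). With library totals the WT value was -0.18 (adjusted p = 0.00244).

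CDH2, whose gain is a classical sign of the cadherin switch, went the other way at low levels. It had 2.80, 2.77 and 3.15 CPM in paclitaxel-treated GLI2 KO cells, against 0.705, 1.05 and 1.06 CPM in DMSO. WT samples had 1.45, 1.93 and 1.38 CPM in paclitaxel, against 0.666, 0.550 and 0.689 CPM in DMSO. Within each treatment the GLI2 KO samples were all above the WT samples, and within each genotype the paclitaxel samples were all above the DMSO samples. The log2 fold change under paclitaxel was 1.62 ± 0.15 in GLI2 KO cells (edgeR adjusted p = 8.79e-10) and 1.31 ± 0.17 in WT cells (adjusted p = 2.38e-07).

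CDH11, a cadherin of osteoblasts and fibroblasts, was near the floor. It passed the filter on low counts only through the paclitaxel-treated GLI2 KO samples, and would not have passed on the WT samples alone. Its counts were 15, 24 and 53 in paclitaxel-treated GLI2 KO cells, against 9, 7 and 31 in DMSO. They were 6, 12 and 4 in paclitaxel-treated WT cells, against 0, 0 and 2 in DMSO. Replicate 3 held the highest count of its GLI2 KO group in both treatments. In WT cells the summed counts, 22 against 2, gave a depth-adjusted ratio of 11.99 with a 95% counting interval of 2.95 to 105 (edgeR adjusted p = 0.0204), and the call was lost without paclitaxel replicate 2 or without DMSO replicate 1 or 2 (adjusted p 0.0848, 0.0816 and 0.0637). In GLI2 KO cells the log2 fold change of 0.75 ± 0.51 missed the threshold (adjusted p = 0.203), but without DMSO replicate 3 it was 1.65 (adjusted p = 0.00867).

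Summed markers of other cell types rose under paclitaxel, as CDH2 did in both genotypes and CDH11 in WT cells. The summed level of haematopoietic markers was 3.69 to 4.10 CPM in paclitaxel-treated GLI2 KO cells, against 1.17 to 1.47 CPM in DMSO, and 2.32 to 2.58 CPM in paclitaxel-treated WT cells, against 0.623 to 0.734 CPM in DMSO. All 5 haematopoietic markers tested were called higher under paclitaxel in both genotypes, as were all 4 endothelial and all 5 stromal markers. SPI1, ITGAM, PDGFRA and COL3A1 passed the filter on low counts only through paclitaxel samples, so their rise was partly set by the filter. SPI1 averaged 0.170 against 0.0187 CPM in GLI2 KO cells and 0.226 against 0.00784 CPM in WT cells. CD68, CDH5, POSTN and BGLAP had too few counts to be tested. Endothelial markers summed to 2.92 to 3.23 against 1.19 to 1.54 CPM in GLI2 KO cells (paclitaxel against DMSO) and to 4.19 to 4.53 against 2.37 to 3.01 CPM in WT cells. Unlike CDH2 and CDH11, the endothelial sum was lower in GLI2 KO than in WT cells in each treatment. KDR averaged 0.865 against 2.82 CPM in paclitaxel and 0.104 against 2.04 CPM in DMSO (GLI2 KO against WT). Stromal and osteoblast markers summed to 78.0 to 81.0 against 57.3 to 60.7 CPM in GLI2 KO cells and to 70.7 to 72.4 against 58.4 to 63.1 CPM in WT cells. Most of that sum was RUNX2, which averaged 50.0 against 42.4 CPM in GLI2 KO cells and 53.6 against 48.0 CPM in WT cells. In GLI2 KO against WT cells the haematopoietic list had 2 called higher and 0 lower in paclitaxel and 3 and 0 in DMSO, the endothelial list 2 and 1 in each, and the stromal list 3 and 1 in paclitaxel and 2 and 2 in DMSO. Genes of the stromal list, among them PDGFRB, COL1A1 and RUNX2, also stand on lists of EMT factors or mesenchymal markers. POSTN was at 0 in DMSO-treated GLI2 KO cells. The part of these transcripts in the results for CDH2 and CDH11 was not tested.

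**Figure D3:**
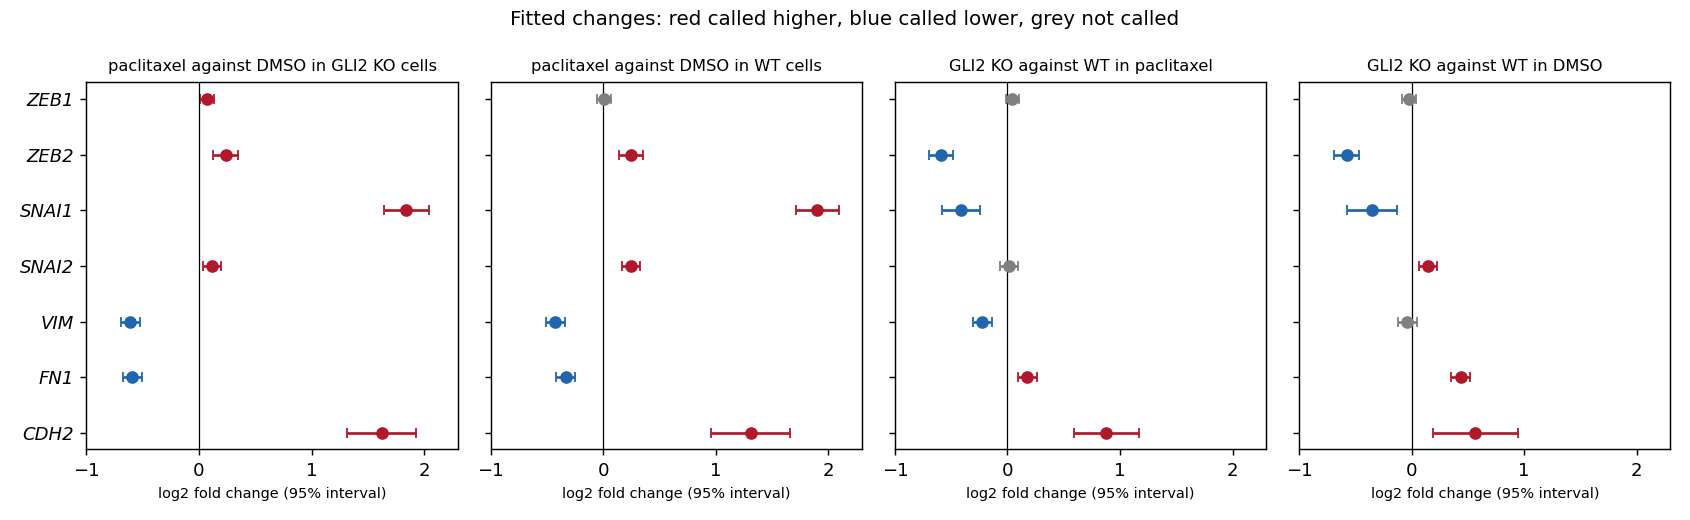
Fitted log2 fold change with its 95% interval for 7 of the genes in 4 comparisons; red marks genes called higher at an adjusted p below 0.05, blue genes called lower and grey genes not called, and CDH11 is left out for its low counts. SNAI1 and CDH2 stand at 1.31 to 1.90 under paclitaxel, and ZEB2 at -0.59 and -0.58 in GLI2 KO against WT cells.

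The second comparison asked how GLI2 KO cells differed from WT cells within a treatment. ZEB2 and SNAI1 were lower and CDH2, CDH11 and FN1 higher in GLI2 KO cells in both treatments, CDH11 being tested only through its paclitaxel-treated GLI2 KO samples. VIM was called lower in paclitaxel and SNAI2 higher in DMSO, and ZEB1 was called in neither. In paclitaxel 3 of the 8 genes were called higher, 3 lower and 2 neither, and of all genes tested 45.6% were called, 23.4% higher and 22.2% lower. In DMSO 4 were called higher, 2 lower and 2 neither, and of all genes tested 41.6% were called, 22% higher and 19.6% lower. The median log2 fold change over the 8 genes was 0.03 in paclitaxel and 0.06 in DMSO, and that over all genes tested -0.007 and 0.008.

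ZEB2 showed the most separate levels: every GLI2 KO sample, from 11.4 to 15.02 CPM, lay below every WT sample, from 18.3 to 23.0 CPM. Its log2 fold change in GLI2 KO against WT cells was -0.59 ± 0.05 in paclitaxel (edgeR adjusted p = 9.9e-10) and -0.58 ± 0.05 in DMSO (adjusted p = 2.48e-09), which is 33.5% and 33.0% lower. On chromosome 2 the 50 tested genes nearest to ZEB2, 25 on each side, had a median log2 fold change of -0.23 in paclitaxel and -0.16 in DMSO. Of those 50, 8 were further down than ZEB2 in paclitaxel and 7 in DMSO. FN1, on the same chromosome, was higher in GLI2 KO cells while its own 50 neighbours had medians of -0.14 and -0.09. The part of the neighbourhood in the ZEB2 result was not tested.

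SNAI1 was lower in GLI2 KO cells by 24.9% in paclitaxel (log2 fold change -0.41 ± 0.08; edgeR adjusted p = 0.000193) and by 21.8% in DMSO (-0.35 ± 0.11; adjusted p = 0.00997). Replicates did not overlap in either treatment, which held for 55.2% of all genes tested in paclitaxel and 48.6% in DMSO. The DMSO call rested on 171 to 239 counts in GLI2 KO cells against 248 to 366 in WT cells, and leaving out replicate 1 of either genotype ended it (adjusted p = 0.0701 for GLI2 KO and 0.0824 for WT). The neighbours of SNAI1 on chromosome 20 had medians of 0.10 in paclitaxel and -0.02 in DMSO.

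FN1 was higher in GLI2 KO cells by 13.1% in paclitaxel (log2 fold change 0.18 ± 0.04; edgeR adjusted p = 0.00103) and by 35.5% in DMSO (0.44 ± 0.04; adjusted p = 8.8e-09). CDH2 was 1.84-fold higher in paclitaxel (0.88 ± 0.14; adjusted p = 9.03e-06) and 1.48-fold higher in DMSO (0.57 ± 0.18; adjusted p = 0.0145). The DMSO call of CDH2 did not survive leaving out GLI2 KO replicate 2 (adjusted p = 0.0686) or 3 (0.0624), or replicate 2 of the WT cells (0.0627). CDH11 was higher by 1.94 ± 0.57 on the log2 scale in paclitaxel (adjusted p = 0.00955). That call ended without replicate 3 of either genotype (adjusted p = 0.0677 for GLI2 KO and 0.0555 for WT). CDH11 passed the filter on low counts only through the paclitaxel-treated GLI2 KO samples, the higher group here, so this difference was partly set by the filter. In DMSO the 47 counts of CDH11 in GLI2 KO cells, against 2 in WT cells, gave a depth-adjusted ratio of 24.7 with a 95% counting interval of 6.46 to 210 (adjusted p = 0.00132). Of those 47 counts, 31 came from replicate 3, and on the DMSO samples alone CDH11 would not have passed the filter on low counts. The fitted log2 difference ran from 3.50 to 7.08 with 1 sample left out, the lowest without GLI2 KO replicate 3 and the highest without WT replicate 3, and was called in 6 of 6 such fits (adjusted p 0.000313 to 0.0108).

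VIM was 14.4% lower in GLI2 KO than in WT cells in paclitaxel (log2 fold change -0.22 ± 0.04; edgeR adjusted p = 5.68e-05). In DMSO its difference was -0.04, with a 95% interval of -0.12 to 0.04 (adjusted p = 0.475). SNAI2 was higher in GLI2 KO cells by 10.4% in DMSO (0.14 ± 0.04; adjusted p = 0.00477), and in paclitaxel the difference was 0.01, with an interval of -0.07 to 0.09 (adjusted p = 0.809). ZEB1 differed by 0.04 in paclitaxel, with an interval of -0.02 to 0.11 (adjusted p = 0.235), and by -0.02 in DMSO, with an interval of -0.08 to 0.04 (adjusted p = 0.612).

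The third comparison asked whether the paclitaxel effect itself differed between genotypes, as the GLI2 KO effect minus the WT effect. It was more negative in GLI2 KO cells for FN1 (-0.26 ± 0.06 on the log2 scale; edgeR adjusted p = 0.00423) and VIM (-0.18 ± 0.06; adjusted p = 0.0321), and the other 6 genes were not called. Of all genes tested 13.5% were called, 6.56% higher and 6.93% lower. The FN1 call held in each of the 12 fits without 1 sample (adjusted p 0.00205 to 0.0156). For VIM it held in 3 of those 12, without GLI2 KO DMSO replicate 3 or without GLI2 KO paclitaxel replicate 1 or 2. In the other 9 the adjusted p was 0.0566 to 0.0879. SNAI1, which moved most under paclitaxel among the factors, had a difference of -0.06 with a 95% interval of -0.34 to 0.22 (adjusted p = 0.836), and ZEB2 one of -0.01 with an interval of -0.17 to 0.15 (adjusted p = 0.952). For SNAI2 the difference was -0.13 ± 0.06 (adjusted p = 0.132), and for CDH2 0.31 with an interval of -0.16 to 0.79 (adjusted p = 0.424).

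Genes around the 8 were grouped in lists by role, and up to 4 called genes per list and comparison, provided that a group averaged 1 CPM or more, were taken by the size of their change. Epithelial genes, a class that EMT factors repress, were mostly called higher under paclitaxel. Of 22 tested, 15 were called higher and 3 lower under paclitaxel in GLI2 KO cells (median log2 fold change 0.39), and 13 higher and 4 lower in WT cells (median 0.50). With library totals 16 were higher and 2 lower in GLI2 KO cells, and 15 higher and 0 lower in WT cells. Of all genes tested, with TMM factors, 33% were called higher in GLI2 KO and 34.6% in WT cells. TJP3, on the list, passed the filter on low counts only through the paclitaxel-treated GLI2 KO samples. MARVELD2, a tricellular tight junction protein, averaged 1.55 ± 0.287 CPM in paclitaxel-treated GLI2 KO cells and 0.228 ± 0.0637 CPM in DMSO. WT cells averaged 2.40 ± 0.209 CPM in paclitaxel and 0.256 ± 0.0756 CPM in DMSO, and its log2 fold change was 2.75 ± 0.21 in GLI2 KO cells (edgeR adjusted p = 4.01e-11) and 3.21 ± 0.20 in WT cells (adjusted p = 6e-13). CDH1, named here outside that rule and after its values were seen, averaged 0.858 CPM in paclitaxel-treated GLI2 KO cells and 0.310 CPM in DMSO, and 0.367 CPM in paclitaxel-treated WT cells and 0.127 CPM in DMSO. Its log2 fold change under paclitaxel was 1.46 ± 0.35 in GLI2 KO cells (adjusted p = 0.00153) and 1.52 ± 0.46 in WT cells (adjusted p = 0.00797).

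Set against WT cells, GLI2 KO cells had on the epithelial list 11 called higher and 2 lower in paclitaxel (median 0.26), and 9 higher and 2 lower in DMSO (median 0.22). ESRP1, an epithelial splicing regulator, averaged 2.59 ± 0.0895 CPM in GLI2 KO cells against 0.521 ± 0.0700 CPM in WT cells in paclitaxel, and 1.94 ± 0.126 against 0.412 ± 0.0519 CPM in DMSO. The log2 fold change of ESRP1 was 2.32 ± 0.14 in paclitaxel (edgeR adjusted p = 5.66e-13) and 2.22 ± 0.15 in DMSO (adjusted p = 4.66e-12). CLDN1, a tight junction claudin, was higher by 1.22 ± 0.08 in paclitaxel (adjusted p = 1.93e-12) and 1.62 ± 0.09 in DMSO (adjusted p = 7.38e-14), and the desmosomal DSP by 0.63 and 0.78. MARVELD2 went the other way in paclitaxel, at -0.62 ± 0.15 (adjusted p = 0.00132).

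Other mesenchymal markers were mixed. Of 25 tested, 12 were called higher and 9 lower under paclitaxel in GLI2 KO cells, and 14 higher and 7 lower in WT cells. COL3A1 and FAP, on the list, passed the filter on low counts only through paclitaxel samples. LOXL2, a lysyl oxidase that crosslinks collagen, fell like VIM and FN1, with a log2 fold change of -1.05 ± 0.04 in GLI2 KO cells (edgeR adjusted p = 5.68e-15) and -0.97 ± 0.04 in WT cells (adjusted p = 2.1e-14). COL5A2, a fibrillar collagen chain, rose by 0.85 ± 0.07 and 1.40 ± 0.07. Against WT cells, 7 of the 25 were called higher and 6 lower in GLI2 KO cells in paclitaxel (6 and 9 with upper-quartile factors), and 10 higher and 6 lower in DMSO. SPARC, a matrix glycoprotein, was higher in GLI2 KO cells by 1.34 ± 0.08 in paclitaxel (adjusted p = 1.02e-11) and 1.77 ± 0.08 in DMSO (adjusted p = 1.47e-13). S100A4 was higher by 1.14 ± 0.12 and 1.84 ± 0.14.

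**Figure D4:**
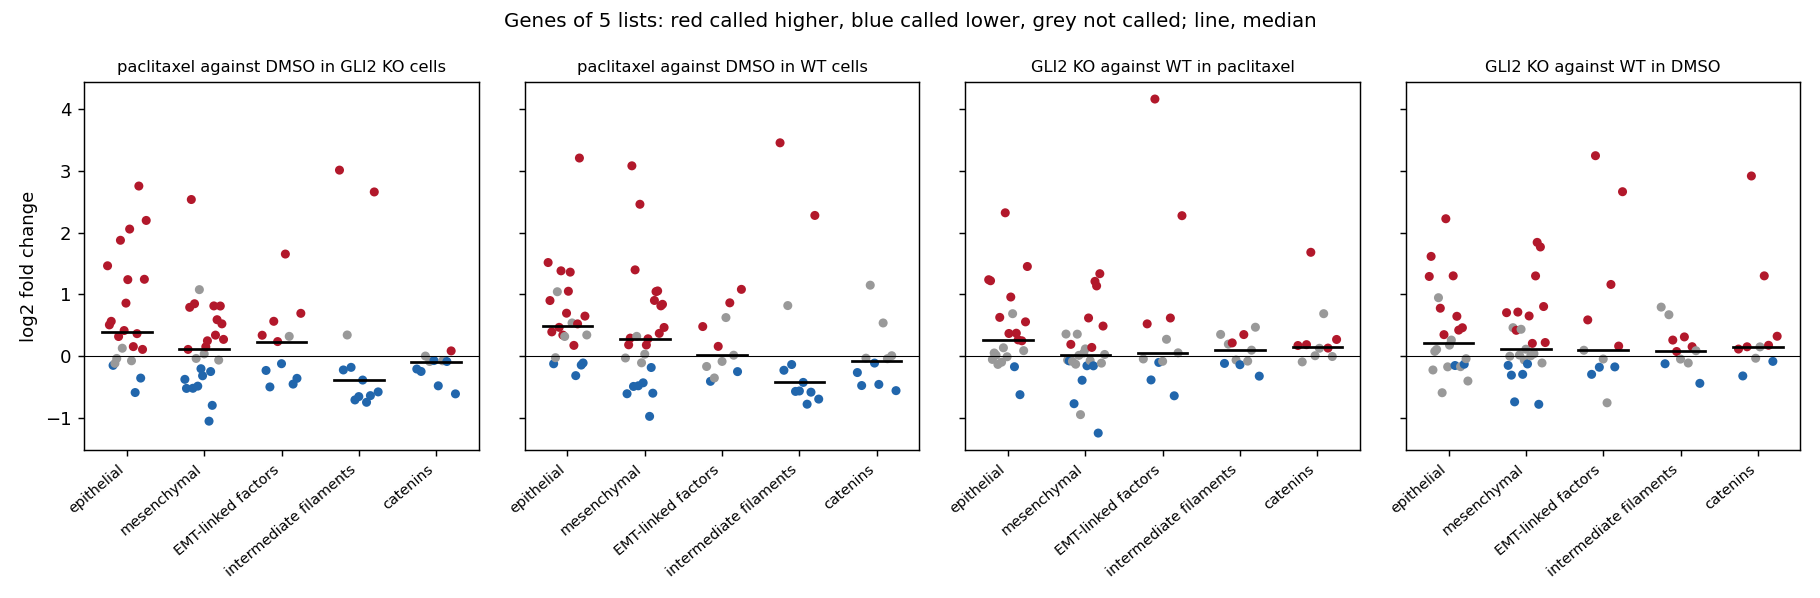
Log2 fold change of each tested gene of 5 lists in 4 comparisons; each point is a gene, red called higher, blue called lower and grey not called, and the black line is the list's median. The epithelial median is 0.39 and 0.50 under paclitaxel in GLI2 KO and WT cells. That of intermediate filaments other than vimentin (lamins and linkers included, keratins left out) is -0.39 and -0.42.

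A list of intermediate filaments other than vimentin, with lamins and linkers but without keratins, mostly went down with VIM. Of 11 tested, 8 were called lower and 2 higher under paclitaxel in each genotype. Medians were -0.39 in GLI2 KO and -0.42 in WT cells. DES rose from 0.0572 to 0.480 CPM in GLI2 KO and from 0.0357 to 0.376 CPM in WT cells, and PRPH rose too. Both are named outside the naming rule and passed the filter on low counts only through paclitaxel samples. Their rise was thus partly set by the filter. Of the keratins, on the epithelial list, KRT8 rose from 301 to 388 CPM in GLI2 KO and from 225 to 323 CPM in WT cells. KRT18 also rose and KRT19 fell. NES, the gene of nestin, a filament protein that assembles with vimentin, averaged 11.98 CPM in paclitaxel and 20.1 CPM in DMSO in GLI2 KO cells, and 12.7 CPM in paclitaxel and 21.7 CPM in DMSO in WT cells. Its log2 fold change was -0.74 ± 0.07 (edgeR adjusted p = 2.61e-08) and -0.78 ± 0.07 (adjusted p = 1.26e-08). PLEC, the gene of the linker plectin, fell by 0.64 and 0.58 on the log2 scale, and LMNB1, of lamin B1, by 0.71 and 0.57. With library totals 6 of the 11 were called lower in each genotype. Against WT cells, 2 were higher and 3 lower in GLI2 KO cells in paclitaxel, and 4 higher and 2 lower in DMSO (2 and 2 with library totals).

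Of 14 fibronectin receptors and matrix partners, 9 were called higher and 2 lower under paclitaxel in GLI2 KO cells, and 8 higher and 3 lower in WT cells (10 and 2 with library totals), while FN1 fell. Of all genes tested 33% were called higher in GLI2 KO and 34.6% in WT cells. ITGA9 and ITGB6 passed the filter on low counts only through paclitaxel samples, so their rise was partly set by the filter. THBS1, thrombospondin 1, rose by 1.09 on the log2 scale in GLI2 KO cells (edgeR adjusted p = 0.00012) and by 1.65 in WT cells (adjusted p = 6.79e-06). Between genotypes, GLI2 KO against WT, 4 were higher and 5 lower in paclitaxel (3 and 6 with upper-quartile factors), and 3 higher and 4 lower in DMSO. TNS1, the integrin adaptor tensin 1, was lower by 1.64 ± 0.06 in paclitaxel (adjusted p = 3.21e-16) and 1.91 ± 0.06 in DMSO (adjusted p = 1.17e-17). TNS1 averaged 8.80 CPM in GLI2 KO against 27.5 CPM in WT cells in paclitaxel, and 9.35 against 35.2 CPM in DMSO.

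Among 8 other cadherins tested, with CDH1 of the epithelial list among them, 5 were called higher and 2 lower under paclitaxel in each genotype. CDH3, CDH13 and CDH15, of those called higher, would not have passed the filter on low counts on the DMSO samples alone. Their rise was thus partly set by the filter. The called cadherins at 1 CPM or more included CDH4 (R-cadherin), which fell by 0.67 on the log2 scale in GLI2 KO cells and 0.49 in WT cells, and CDH8, which rose by 0.43 and 0.50. In GLI2 KO against WT cells 1 was higher and 2 lower in each treatment, the lower ones being CDH24 and CDH4. Of 10 catenins and cadherin partners, 1 was called higher and 6 lower under paclitaxel in GLI2 KO cells, and 0 higher and 5 lower in WT cells. That split depends on scaling: with library totals it was 4 and 2 in GLI2 KO cells and 3 and 4 in WT cells. VCL, vinculin, fell by 0.61 ± 0.03 in GLI2 KO cells (edgeR adjusted p = 1.97e-14) and 0.56 ± 0.03 in WT cells (adjusted p = 1.2e-13). Between GLI2 KO and WT cells 5 catenins and partners were higher and 0 lower in paclitaxel, and 6 higher and 2 lower in DMSO.

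Of 11 other EMT-linked transcription factors tested, 5 were called higher and 5 lower under paclitaxel in GLI2 KO cells (6 and 3 with library totals), and 4 higher and 2 lower in WT cells. HMGA2, an architectural chromatin protein, fell by 0.50 on the log2 scale in GLI2 KO cells (edgeR adjusted p = 5.02e-12) and 0.41 in WT cells (adjusted p = 1.6e-10). Relative to WT cells, GLI2 KO cells had 4 factors higher and 3 lower in paclitaxel, and 5 higher and 3 lower in DMSO. PRRX1, a homeobox factor of mesenchyme, averaged 1.30 ± 0.219 CPM in GLI2 KO against 0.0710 ± 0.0228 CPM in WT cells in paclitaxel, a log2 fold change of 4.16 ± 0.27 (adjusted p = 3.72e-12). On the WT samples alone PRRX1 would not have passed the filter on low counts, so this difference was partly set by the filter. TCF4, which encodes the E-box factor E2-2, averaged 3.49 ± 0.307 CPM in GLI2 KO against 0.722 ± 0.0882 CPM in WT cells in paclitaxel, and 2.15 ± 0.217 against 0.337 ± 0.0387 CPM in DMSO. TCF4 had a log2 fold change of 2.27 ± 0.13 in paclitaxel (adjusted p = 2.66e-13) and 2.66 ± 0.16 in DMSO (adjusted p = 3.84e-13).

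Cofactors and turnover factors of the EMT proteins gave 6 called higher and 13 lower of 23 under paclitaxel in GLI2 KO cells, and 5 higher and 12 lower in WT cells. With library totals these were 12 and 6 in GLI2 KO cells and 10 and 6 in WT cells, so no direction is given for the list. ID2, an inhibitor of E-box factors, rose by 2.303 ± 0.10 in GLI2 KO cells (edgeR adjusted p = 1.55e-15) and 2.59 ± 0.09 in WT cells (adjusted p = 5.74e-17). ID2 was lower in GLI2 KO than in WT cells by 0.84 in paclitaxel and 0.56 in DMSO. The list then had 11 higher and 4 lower in paclitaxel (7 and 5 with upper-quartile factors), and 10 higher and 5 lower in DMSO (9 and 7 with library totals), among them the corepressor CTBP1, higher by 0.43 and 0.44.

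TGF-beta inputs gave 4 called higher and 4 lower of 14 under paclitaxel in GLI2 KO cells, and 6 higher and 5 lower in WT cells. With library totals these were 10 and 2 in GLI2 KO cells and 8 and 2 in WT cells. INHBA, the activin A subunit, rose by 1.78 ± 0.07 in GLI2 KO cells (edgeR adjusted p = 3.48e-16) and 1.91 ± 0.09 in WT cells (adjusted p = 3.18e-15), and SMAD7, a feedback inhibitor, by 1.26 and 1.60. In GLI2 KO against WT cells 8 were higher and 1 lower in paclitaxel, and 6 higher and 1 lower in DMSO. INHBA averaged 16.6 CPM in GLI2 KO against 6.82 CPM in WT cells in paclitaxel, and 4.82 against 1.81 CPM in DMSO. Of the luminal breast markers, 7 of 9 were called higher and 2 lower in GLI2 KO cells in paclitaxel, and 6 higher and 2 lower in DMSO, while under paclitaxel 3 were higher and 3 lower in each genotype (5 and 2 in WT cells with library totals). The genes of the line itself, which include VIM, gave 1 higher and 5 lower of 6 under paclitaxel in each genotype (2 and 3 in GLI2 KO and 1 and 3 in WT cells with library totals), and in GLI2 KO against WT cells 1 higher and 2 lower in paclitaxel and 1 higher and 1 lower in DMSO.

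Overlapping transcripts can share counts with 5 of the genes, since the labels do not say how counting used strand. On GRCh38, VIM lies on the plus strand at chr10:17228259-17237593, and 12.4% of its exon bases are shared with VIM-AS1 on the minus strand and 619 of them with AL133415.1 there. ZEB1, at chr10:31318495-31529814 on the plus strand, shares 4.23% with ZEB1-AS1. ZEB2, at chr2:144364364-144524583 on the minus strand, shares 5.18% with ZEB2-AS1. CDH2, at chr18:27950966-28177446, shares 2.75% with AC110015.1, and CDH11, at chr16:64943753-65126112, shares 1.90% with AC010533.1. SNAI1, at chr20:49982999-49988886, SNAI2, at chr8:48917604-48921740, and FN1, at chr2:215360440-215436172, overlapped no exon of another gene. Of 4 antisense and microRNA host transcripts tested, 2 were called higher and 2 lower under paclitaxel in GLI2 KO cells, and 2 higher and 1 lower in WT cells. With library totals 0 were lower in GLI2 KO cells. On the DMSO samples alone MIR34AHG would not have passed the filter on low counts. VIM-AS1 fell by 0.27 under paclitaxel in GLI2 KO cells (edgeR adjusted p = 0.0137), and ZEB1-AS1 rose by 0.47 there (adjusted p = 1.76e-05). In GLI2 KO against WT cells 1 was higher and 1 lower in paclitaxel (1 and 2 with library totals), and 2 higher and 1 lower in DMSO (1 and 1 with library totals), where ZEB1-AS1 was lower by 0.46.

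The genes nearest in profile were sought among 13499 genes by the root mean square difference of centred log2(CPM + 0.5) over the 12 samples, as a description. Nearest to SNAI1 were RPP38-DT (0.120) and XIRP2 (0.132), against its own spread of 0.919 (SD on the log2 scale). For ZEB2 they were CWC22 (0.0567) and TMEM192 (0.0626) and for SNAI2 ZNF384 (0.0376) and SLC39A6 (0.0425), and DYNC1LI1 (0.0255) was near to ZEB1, which itself varied by 0.0354. VIM was nearest to COMMD4 (0.0312) and TPGS2 (0.0373), FN1 to RHOF (0.0436) and DAG1 (0.0453), and CDH2 to TRPM6 (0.129) and SLFN5 (0.135). DAG1 encodes dystroglycan, a matrix receptor, and SLC39A6 a zinc transporter also named LIV-1.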

How the data were processed

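RNA was measured in 12 samples. Per the labels' protocols, QIAzol was used for extraction and qScript supermix for cDNA. STAR, Trim Galore 0.6.7, DESeq2 1.36.0 and the hg38 build appear in the submitters' processing notes, without roles; counter, annotation and strand setting are not stated. The deposited values used are the authors' raw counts per gene; the lowest row total was 20. The deposited normalized table was not used.

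edgeR 4.0.16 in R 4.3.3 was run on all 12 samples (TMM factors, filterByExpr with a minimum count of 10, robust quasi-likelihood F test, 8 residual degrees of freedom), with Benjamini-Hochberg adjustment over 21974 genes (87.7%) and a threshold of 0.05. The fit was tested on simulated data. Genes near the floor in DMSO could pass the filter through paclitaxel samples alone, which favours calls of higher under paclitaxel in the lists. Genes near the floor in 1 genotype could likewise pass through the other alone, which favours calls between genotypes. Groups came from sample titles, and replicates were numbered in accession order. Promoters are RefSeq's, in GRCh38.p14; at least 1 window was found for ZEB1, ZEB2, VIM, FN1 and CDH2. Coordinates and exon lengths are GENCODE's, matched by symbol. Intervals of log2 fold changes come from the quasi-likelihood fit and include the spread between samples. Counting intervals and floors cover counting error only. Other scalings, filters, DESeq2 1.42.0, 2-group fits and leaving out samples were tried. The 10 genes, 10 gene lists and 5 marker lists were chosen with earlier results of these data known; the naming rule is given with the lists, and some genes it names are not reported here.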

Additional observations from a re-analysis of the deposited data

Results flagged for a closer look

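Among the genes named here, 23 were flagged because the paclitaxel effect in GLI2 KO cells minus that in WT cells passed the test of the difference itself (edgeR, adjusted p below 0.05). All values below are that difference on the log2 scale. Of the 8 EMT genes, FN1 (-0.26) and VIM (-0.18) were flagged, both because they fell further in GLI2 KO cells.

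The other 21 are list genes, given as values. Of the EMT-linked factors SOX9 had -0.47. Of the mesenchymal markers, S100A4 had -0.70, COL5A2 -0.55 and COL1A1 0.50. Of the epithelial genes, CLDN1 had -0.39, OCLN -0.21, ST14 0.60 and PKP3 0.22. Of the cofactors, ID1 had -0.34, HDAC1 -0.19, TCF12 0.19 and RCOR1 0.19. Among cadherins and filaments CDH4 had -0.18 and LMNB1 -0.14. Fibronectin receptors and partners gave ITGB3 0.66, CCN2 -0.42 and TNS1 0.27. The TGF-beta inputs gave TGFBR3 -0.50, SMAD7 -0.34, TGFB2 0.25 and SMAD4 0.14. Of these 21, 10 were called in all 12 fits without 1 sample (SOX9, COL5A2, COL1A1, TCF12, RCOR1, HDAC1, CDH4, ITGB3, CCN2 and TGFBR3), and the other 11 lost the call in at least 3 of the 12. S100A4 was called in 9 fits, SMAD7 in 7, CLDN1, PKP3, ID1 and TGFB2 in 6, ST14, OCLN, LMNB1 and TNS1 in 5 and SMAD4 in 2. Of the EMT genes, FN1 was called in all 12 and VIM in 3.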

How the results depend on the processing

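Over the alternatives to the tests of the 8 genes, 601 values were computed, of which 555 kept their direction and side of the threshold, 30 lost a call, 4 gained one and 12 changed sign. None of the 12 was called with TMM factors and all samples, and the cause was not tested. ZEB1 under paclitaxel in WT cells turned to -0.014 without WT DMSO replicate 3 and -0.0092 without WT paclitaxel replicate 2 (highest 0.022 with 1 sample left out). VIM in GLI2 KO against WT cells in DMSO turned to 0.0073 without GLI2 KO DMSO replicate 3 and 0.0070 without both GLI2 KO replicates 3, a setting chosen after seeing the data (lowest -0.059 with 1 sample left out). SNAI2 in GLI2 KO against WT cells in paclitaxel turned to -0.021 with upper-quartile factors and -0.011 without GLI2 KO paclitaxel replicate 2 (highest 0.038). The difference of paclitaxel effects turned positive for ZEB2, at 0.011 with library totals and at 0.0080, 0.032, 0.00013 and 0.015 without 1 sample (lowest -0.078), and for SNAI1, at 0.014 without GLI2 KO paclitaxel replicate 1 (lowest -0.16).

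With 1 sample left out, the EMT genes called higher under paclitaxel numbered 3 to 5 in GLI2 KO and 4 to 5 in WT cells, with 2 lower in each. In GLI2 KO against WT cells they numbered 2 to 3 higher and 3 lower in paclitaxel, and 3 to 4 higher and 1 to 2 lower in DMSO. For the difference of effects 1 to 2 were lower and 0 higher. Upper-quartile factors and library totals moved the median of all genes under paclitaxel by 0.12 to 0.18 (log2), while RLE factors moved it by 0.00864 in GLI2 KO and -0.000489 in WT cells and DESeq2 by 0.0087 and -0.000476. With TMM factors 7250 genes were called higher and 7077 lower in GLI2 KO cells and 7613 and 7047 in WT cells. With upper-quartile factors these were 9324 and 4791 in GLI2 KO cells and 9905 and 4731 in WT cells, and with library totals 10398 and 3831, and 10352 and 4295. With RLE factors they were 7373 and 6920, and 7609 and 7051. SNAI1, CDH2, ZEB2, SNAI2, VIM and FN1 kept their paclitaxel calls under upper-quartile factors and library totals. Low counts limit CDH11. The titles give no replicate number shared between groups, so the labels set no pairs. In GLI2 KO cells the library numbers alternate DMSO and paclitaxel, without a statement that neighbours are pairs. Neighbours deviated from their group means with correlations of 0.03, 0.03 and 0.07. A replicate block for them, added after seeing the data, gave 7374 genes higher and 7280 lower under paclitaxel in GLI2 KO cells and 1788 and 1939 for the difference of effects, with 5 and 2 and with 0 and 2 of the 8 genes, and changed no call among them.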
